A study of Homo sapiens with 24 samples.

Results

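RNA sequencing of the human acute myeloid leukemia line MOLM-13 was used here to describe what olaparib adds to the transcriptome when the cells also receive L-ascorbic acid (LAA, vitamin C). The 3 libraries labelled MOLM-13 with LAA and olaparib together were set against the 3 labelled MOLM-13 with LAA alone, 6 of the 24 libraries in the series. LAA was given at 250 µM and olaparib at 1 µM. Cells were harvested after 72 h. The 6 other MOLM-13 libraries received olaparib alone or the vehicle of both compounds (PBS and DMSO), 3 each. The 12 remaining libraries are THP-1 cells under the same 4 treatments. Both are established lines with the KMT2A-MLLT3 (MLL-AF9) fusion, grown in RPMI 1640 with fetal bovine serum. Each line stands for a single leukemia. The labels do not say whether replicates were separate cultures, so the spread behind each p-value may be technical.

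PARP1 and PARP2 bind breaks in DNA and build chains of ADP-ribose that recruit repair proteins. Olaparib blocks that reaction and can hold the enzymes on the DNA, which cells without homologous recombination tolerate poorly. LAA keeps the iron of TET enzymes reduced, so that they oxidize methylated cytosine, and TDG and base excision repair remove the oxidized bases. The series title names oxidized cytosine as a modulator of sensitivity to PARP inhibitors.

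Total counts per library were 18911455 to 23827905 with LAA and olaparib and 19212564 to 24001941 with LAA. Mitochondrially encoded genes took 8.73 to 9.31% and 7.01 to 8.14% of counts in these groups. Levels below are CPM (counts scaled to library size with TMM factors), and a ± after a mean is the SD over 3 libraries.

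The label MOLM-13 was checked before any comparison, with levels scaled over all 24 libraries. A set of 25 protein-coding genes was chosen for near silence in THP-1 (no more than 12 counts in its 12 libraries together, and 20 or more in the MOLM-13 libraries without LAA). Their summed level was 5.64, 3.52 and 4.23 CPM in the 3 LAA + olaparib libraries, against 6.04, 5.11 and 6.54 CPM in the 3 LAA libraries. It was 18.7 to 23.7 CPM in the MOLM-13 olaparib libraries and 33.7 to 35.2 CPM in the MOLM-13 vehicle libraries. In the THP-1 libraries it was 0.0937 to 1.01 CPM. The receptor tyrosine kinase gene FLT3 had 8.99 to 10.8 CPM with LAA and olaparib and 5.93 to 8.85 CPM with LAA, against 34.0 to 37.8 CPM in MOLM-13 vehicle libraries and 8.84 to 9.66 CPM in THP-1 vehicle libraries. MTAP, one of the 25, had 0.149 to 0.569 CPM with LAA and olaparib, 0.0516 to 0.614 CPM with LAA, and 1.89 to 2.45 CPM in MOLM-13 vehicle libraries. On the summed level, whose genes were chosen to be low in THP-1 and present in MOLM-13 without LAA, the 6 libraries compared lie between the MOLM-13 vehicle and the THP-1 libraries. Pearson correlation of log2 CPM was 0.971 to 0.991 between the lines. Between MOLM-13 libraries of different treatments it was 0.980 to 0.993, so it did not set the lines apart. With the mean THP-1 vehicle level, LAA libraries correlated at 0.988 to 0.993 and LAA + olaparib libraries at 0.988 to 0.990. MOLM-13 vehicle libraries did so at 0.990 to 0.993. What share of THP-1 RNA any library labelled MOLM-13 holds, vehicle included, was not tested, and "MOLM-13" below names the label. Counts of each gene list are also given with that summed level as a covariate where it changes them. The covariate was fitted beside the group terms, so its slope rests on scatter within groups. In the 6 libraries compared the sum rests on 85 to 148 counts a library. A lost call may therefore reflect a wider error, and a kept call is no check of THP-1 content. Of the 135 named genes called, 68 lost the call with the covariate.

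**Figure D1:**
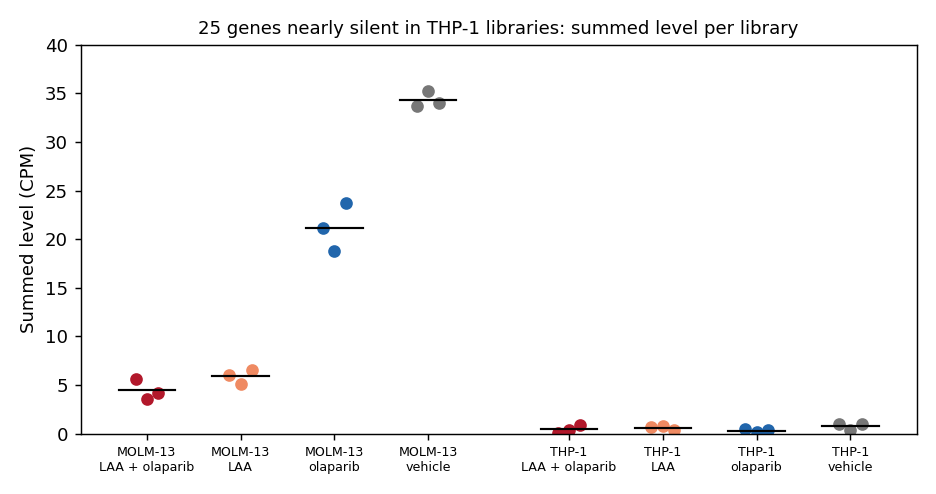
Summed level in CPM (vertical axis) of 25 genes nearly silent in THP-1, one point per library, with the group mean as a bar, for the 4 treatments of each line. The MOLM-13 LAA + olaparib libraries (3.52 to 5.64 CPM) and LAA libraries (5.11 to 6.54 CPM) lie far below the MOLM-13 vehicle libraries (33.7 to 35.2 CPM).

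With olaparib added to LAA, 44 of 50 interferon-stimulated genes and 19 of 33 genes of the amino acid stress response rose. In turn 30 of 32 genes of cholesterol and fatty acid synthesis, 26 of 39 targets of hypoxia-inducible factor and 60 of 74 ribosomal protein genes fell, as did the alarmins S100A8 and S100A9. Of 16160 genes tested, 2413 passed edgeR's quasi-likelihood F test at a Benjamini-Hochberg threshold of 0.05 (14.9%), 1080 higher (6.68%) and 1333 lower (8.25%). At least 2-fold differences numbered 116 higher and 177 lower. All 3 LAA + olaparib libraries lay above all 3 LAA libraries for 2721 genes (16.8%) and below them for 2826 (17.5%). Scaling to total counts shifted the median of all genes by 0.07 on the log2 scale and gave 1509 higher and 946 lower. The count was 443 with the summed level of the THP-1-silent genes as a covariate, 440 of them shared with the 2413. Leaving out LAA + olaparib replicate 2 gave 1029 calls, and leaving out replicate 3 of that group gave 1392. Leaving out LAA replicate 3 gave 1388, and LAA replicate 1 gave 1589. In bulk RNA, fewer cells that express a gene and less of its RNA per cell cannot be told apart.

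**Figure D2:**
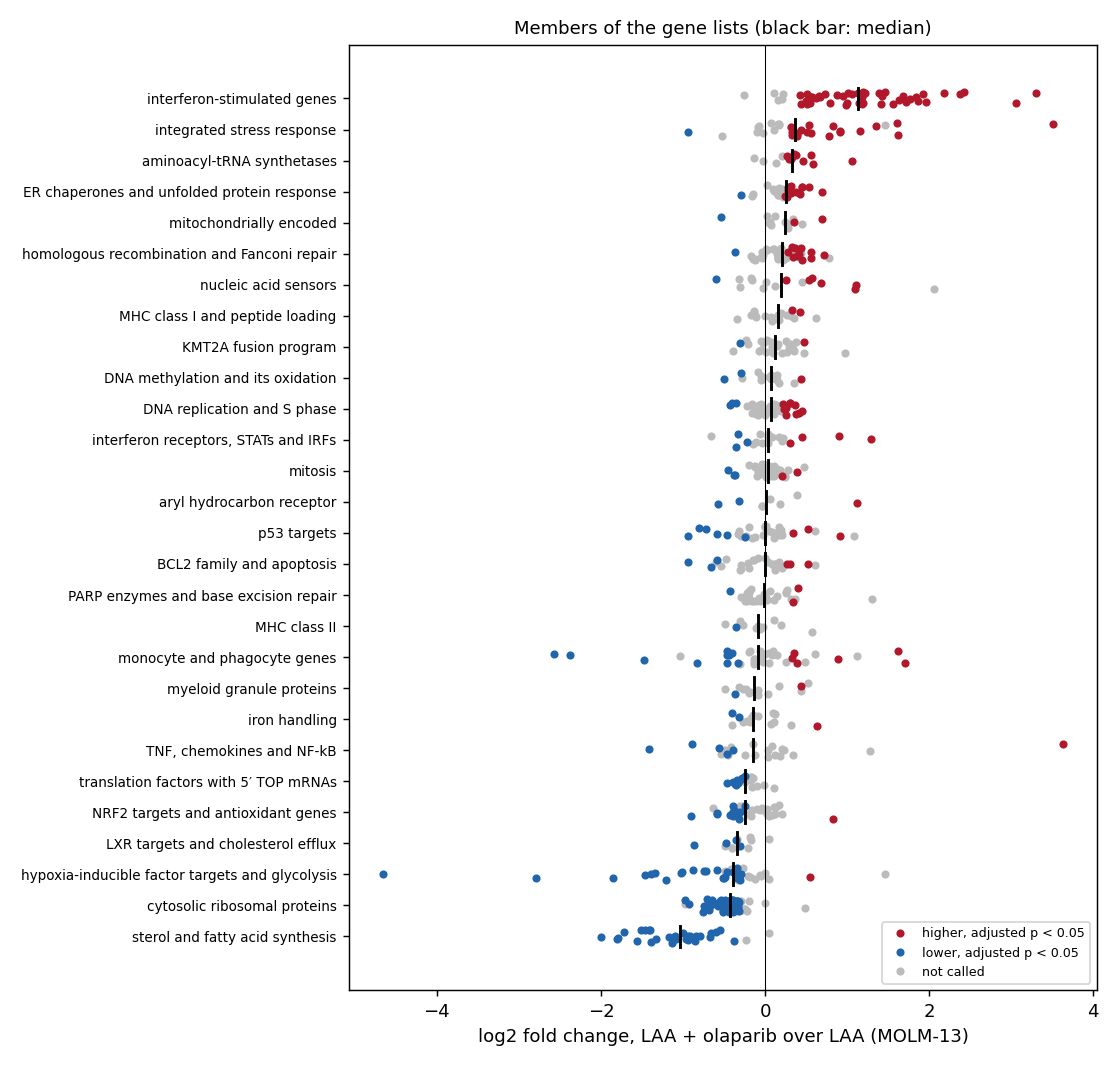
Log2 fold change of LAA + olaparib over LAA in MOLM-13 (horizontal axis) for the tested members of each gene list with at least 8 of them (rows), with the median as a black bar. Red points were called higher and blue points lower by edgeR. Interferon-stimulated genes (median 1.14) stand at the top, and sterol and fatty acid synthesis (median -1.04) at the bottom.

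Interferon-stimulated genes encode antiviral proteins that are switched on through interferon receptors, JAK kinases and STAT and IRF transcription factors. Of the 50 tested here, 44 rose, 0 fell and 6 were not called, beside 6.68% of all genes that rose. Their median log2 fold change was 1.14, against a median of 0.00 over all genes. IFIT2, which binds viral RNA, had 26.4, 34.2 and 29.8 CPM with LAA and olaparib, against 5.67, 6.86 and 4.95 CPM with LAA. Its log2 fold change was 2.37 ± 0.15 (SE) (edgeR adjusted p = 2.33e-09). IFI44L, a regulator of the interferon response, had 9.66, 19.99 and 13.9 CPM in LAA + olaparib libraries, against 1.43, 1.65 and 2.12 CPM in LAA libraries. The LAA + olaparib libraries differed among themselves by more than the LAA libraries did, yet the groups did not overlap. Its log2 fold change was 3.06 ± 0.29 (SE) (edgeR adjusted p = 6.03e-07), and that of its neighbour IFI44 was 2.43 ± 0.21 (SE). OAS2, which makes the oligoadenylates that activate RNase L, had 111, 166 and 128 CPM with LAA and olaparib, against 35.4, 37.3 and 38.01 CPM with LAA, a 3.65-fold rise. OAS1 rose 2.69-fold, IFIT1 3.81-fold, IFIT3 3.29-fold, EPSTI1 4.52-fold and IFI27 3.88-fold. The 6 members not called were ISG20, PARP10, RTP4, BST2, MX1 and IFITM2, which were named after their values were seen. MX1, the dynamin-like antiviral GTPase, averaged 2.09 ± 0.435 CPM with LAA and olaparib and 1.94 ± 0.252 CPM with LAA. The count ranged from 35 higher (with the covariate) to 46 higher over all alternatives. IFITM1, IFITM2 and IFITM3 are near-identical genes whose reads the counting could split.

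The core of the interferon-stimulated response element, GAAA, any 2 bases and GAAA again, was searched on both strands of the 300 bases around each gene start (250 before it and 50 after) in RefSeq, assembly GRCh38.p14. Of the 44 called genes 36 had an entry, and 23 of these held the motif (63.9%), against 1255 of all 35116 promoters (3.57%). The list was chosen as known interferon-stimulated genes, so this excess came with the choice and is not a result about the calls. Among the members not called, BST2, RTP4, ISG20 and MX1 held the motif too. The promoters of 3 of the largest risers are printed because they carry it, with the matches in capitals. They are IFI44L (chr1:78620198-78620497, plus strand), IFI44 (chr1:78649539-78649838, plus strand) and EPSTI1 (chr13:42992192-42992491, minus strand).
IFI44L: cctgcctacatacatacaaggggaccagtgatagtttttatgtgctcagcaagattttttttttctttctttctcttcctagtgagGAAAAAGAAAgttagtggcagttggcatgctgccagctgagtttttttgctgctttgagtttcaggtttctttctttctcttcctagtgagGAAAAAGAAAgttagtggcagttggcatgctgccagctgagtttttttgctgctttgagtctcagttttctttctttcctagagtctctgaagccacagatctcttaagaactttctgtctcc
IFI44: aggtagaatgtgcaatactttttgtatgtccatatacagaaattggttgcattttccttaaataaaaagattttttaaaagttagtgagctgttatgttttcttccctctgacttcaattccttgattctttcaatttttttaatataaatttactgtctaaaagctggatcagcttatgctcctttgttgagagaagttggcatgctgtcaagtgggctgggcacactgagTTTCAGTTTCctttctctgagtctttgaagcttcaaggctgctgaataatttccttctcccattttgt
EPSTI1: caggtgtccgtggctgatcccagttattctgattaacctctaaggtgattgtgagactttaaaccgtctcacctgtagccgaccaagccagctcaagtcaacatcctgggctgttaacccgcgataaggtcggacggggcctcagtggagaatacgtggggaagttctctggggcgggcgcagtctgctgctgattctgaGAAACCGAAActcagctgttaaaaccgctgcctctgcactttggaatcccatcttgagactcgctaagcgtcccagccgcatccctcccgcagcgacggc
IFI44L has 2 matches, which begin 164 and 73 bases before the start. IFI44 has 1 match on the opposite strand, 18 bases before the start, and EPSTI1 has 1 match 50 bases before it. None of the matches overlapped another motif searched, and binding there was not tested.

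Genes that carry the interferon signal moved less evenly. IRF7, the factor that drives interferon alpha genes, had 37.8, 48.97 and 43.2 CPM in LAA + olaparib libraries, against 21.8, 19.9 and 28.02 CPM in LAA libraries. Its log2 fold change was 0.90 ± 0.15 (SE) (edgeR adjusted p = 0.000525). The groups did not overlap. The kinase JAK2 rose 1.37-fold and STAT2 1.23-fold, the last with an edgeR adjusted p of 0.0189. The interferon gamma receptor subunit IFNGR2 fell 1.26-fold. In all, 4 of 19 genes for receptors, STATs and IRFs rose (21.1%) and 3 fell (15.8%), with a median of 0.04. Of all genes 6.68% rose and 8.25% fell. The calls of STAT2 and IFNGR2 were lost in some alternatives that left out a library, and that of JAK2 with the covariate, under which 2 members of the list rose and 0 fell.

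Sensors of foreign or misplaced nucleic acid rose in 6 of 16 cases (37.5%) and fell in 1 (6.25%), beside 6.68% and 8.25% of all genes. IFIH1 (MDA5), a sensor of long double-stranded RNA, had 37.4, 40.8 and 38.9 CPM with LAA and olaparib, against 18.8, 19.4 and 16.3 CPM with LAA, a 2.15-fold rise (edgeR adjusted p = 5.19e-06). DDX58 (RIG-I), which senses RNA ends, rose 2.14-fold, the RNA editing enzyme ADAR 1.602-fold and IFI16 1.49-fold. TMEM173 (STING), the adaptor of the cGAS pathway of DNA sensing, went the other way, with 320.2, 301 and 323 CPM in LAA + olaparib libraries, against 471, 433 and 519.9 CPM in LAA libraries. Its log2 fold change was -0.59 ± 0.07 (SE) (edgeR adjusted p = 2.42e-05). With the covariate or without LAA + olaparib replicate 2 the list had 3 higher and 1 lower. Of 18 MHC class I and peptide loading genes 2 rose, the aminopeptidase ERAP1 1.34-fold and the peptide transporter TAP1 1.26-fold, and 0 rose with the covariate and 4 without LAA replicate 3. Of 11 MHC class II genes 1 fell, HLA-DRB1 (1.28-fold), whose near-identical relatives leave its value uncertain, and 0 fell with the covariate or without LAA replicate 1, LAA replicate 3 or LAA + olaparib replicate 2. Class I rises made 11.1% and class II falls 9.09% of their lists, beside 6.68% and 8.25% of all genes.

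**Figure D3:**
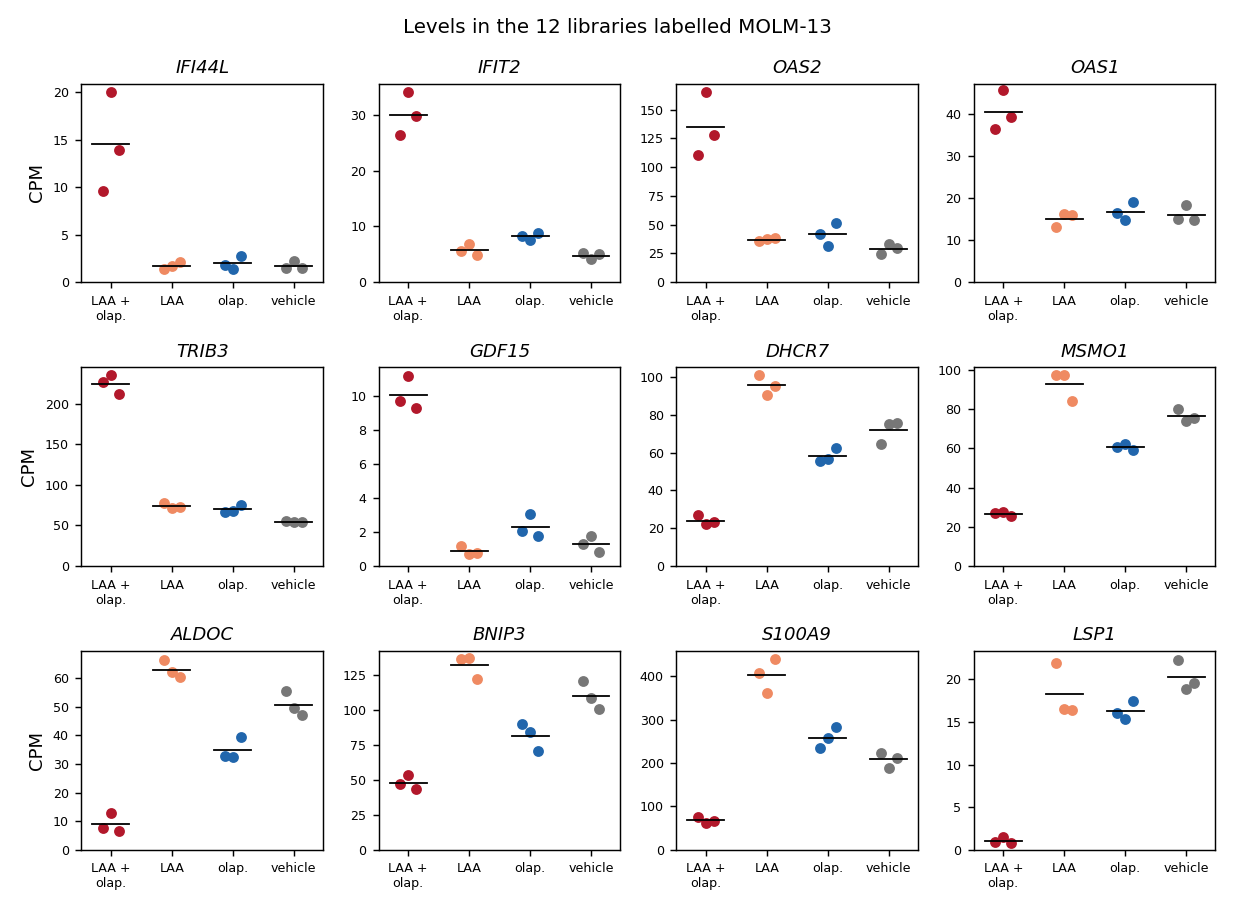
Level in CPM (vertical axes, from 0) of 12 genes in each of the 12 MOLM-13 libraries, with the group mean as a bar, in the order LAA + olaparib, LAA, olaparib (olap.), vehicle. IFI44L, IFIT2, OAS2, OAS1, TRIB3 and GDF15 are highest, and DHCR7, MSMO1, ALDOC, BNIP3, S100A9 and LSP1 lowest, in all 3 LAA + olaparib libraries.

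The integrated stress response slows translation under amino acid shortage and other stresses and raises transcripts of amino acid uptake and synthesis through the factor ATF4. Of 33 tested members 19 rose and 1 fell (the proapoptotic gene BBC3), with a median log2 fold change of 0.36. TRIB3, a pseudokinase that restrains ATF4, had 227, 235 and 212 CPM with LAA and olaparib, against 77.3, 71.1 and 72.3 CPM with LAA. The groups were well apart, and the log2 fold change was 1.61 ± 0.07 (SE) (edgeR adjusted p = 4.29e-11). GDF15, a secreted stress hormone, had 9.66, 11.1 and 9.297 CPM in LAA + olaparib libraries, against 1.18, 0.722 and 0.751 CPM in LAA libraries, an 11.3-fold difference (edgeR adjusted p = 1.12e-07). DDIT3 (CHOP), a proapoptotic transcription factor, rose 2.24-fold, the serine synthesis gene PSAT1 1.89-fold and SESN2, a leucine sensor, 1.88-fold. ATF4 itself had 272, 258 and 272 CPM with LAA and olaparib, against 260.2, 253 and 304 CPM with LAA, with overlapping groups and a log2 fold change of -0.03 ± 0.08 (SE) (edgeR adjusted p = 0.867). The count was 12 higher with the covariate. The motif TGATGNAA of C/EBP-ATF response elements was in 3 of the 15 called members with a RefSeq promoter entry (20%) and in 3.62% of all promoters. The list was chosen as known stress response genes, so that share is not a result about the calls.

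Aminoacyl-tRNA synthetases, which load amino acids onto tRNA, rose in 10 of 14 cases and fell in 0, with a median of 0.32. WARS, the tryptophan enzyme, had 269, 278 and 261 CPM in LAA + olaparib libraries, against 128, 123 and 138 CPM in LAA libraries, a 2.08-fold rise (edgeR adjusted p = 8.96e-09). GARS rose 1.502-fold, IARS 1.47-fold, LARS 1.38-fold and TARS 1.300-fold. Chaperones and other genes of the endoplasmic reticulum's unfolded protein response rose in 12 of 24 cases and fell in 1, with a median of 0.26. The chaperone HSPA5 (BiP) had 630.4, 664 and 628 CPM with LAA and olaparib, against 467, 463 and 481 CPM with LAA, a 1.36-fold rise (edgeR adjusted p = 0.000478). HYOU1 rose 1.37-fold, SEL1L, of the degradation machinery, 1.45-fold, DNAJC3 1.34-fold and HSP90B1 1.296-fold. With the covariate the synthetases had 6 higher, and the chaperone list had 2 higher and 1 lower. The chaperone list had 7 higher and 0 lower without LAA replicate 1 or without LAA + olaparib replicate 2.

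Cholesterol and unsaturated fatty acids are made by enzymes whose genes the membrane-bound SREBP factors switch on when sterols are low. Of 32 tested members 30 fell and 0 rose, beside 8.25% of all genes that fell, and the median log2 fold change was -1.04. DHCR7, the last enzyme of cholesterol synthesis, had 26.8, 22.1 and 23.3 CPM in LAA + olaparib libraries, against 101, 90.9 and 95.5 CPM in LAA libraries. The groups were far apart, and the log2 fold change was -1.997 ± 0.10 (SE) (edgeR adjusted p = 5.86e-11). MSMO1, a sterol C4-methyl oxidase, had 26.9, 27.6 and 25.5 CPM with LAA and olaparib, against 97.7, 97.5 and 84.1 CPM with LAA, a 3.49-fold difference (edgeR adjusted p = 4.29e-11). FADS2, a fatty acid desaturase, fell 3.46-fold, lanosterol synthase (LSS) 2.96-fold and the stearoyl-CoA desaturase SCD 2.63-fold. The members not called were SCAP, which escorts the SREBP proteins, and the acetyl-CoA carboxylase ACACA. Between 28 and 31 members fell in every alternative. The motif TCACNCCAC of sterol response elements was in 1 of the 23 called members with a RefSeq promoter entry (4.35%) and in 1.13% of all promoters. Here too the list was chosen as known genes of sterol and fatty acid synthesis, so the share is not a result about the calls. Genes of cholesterol efflux and LXR receptors fell in 4 of 12 cases (33.3%, beside 8.25% of all genes) and rose in 0. They were APOC1 (1.82-fold), the lysosomal sterol carrier NPC2 (1.39-fold), the receptor NR1H2 (1.28-fold) and the lipid transfer protein PLTP (1.23-fold). That count was 1 with the covariate, 1 without LAA + olaparib replicate 2, and 2 without LAA + olaparib replicate 3 or under total-count scaling.

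Hypoxia-inducible factors raise glycolysis and mitophagy genes when the prolyl hydroxylases that mark them for degradation are inactive, and these hydroxylases use iron and ascorbate. Of 39 tested targets and glycolytic genes 26 fell and 1 rose, with a median of -0.39. ALDOC, a glycolytic aldolase, had 7.64, 12.8 and 6.61 CPM in LAA + olaparib libraries, against 66.4, 61.99 and 60.4 CPM in LAA libraries. The groups were far apart, and the log2 fold change was -2.79 ± 0.17 (SE) (edgeR adjusted p = 1.48e-09). BNIP3, a mitophagy receptor, had 47.1, 53.3 and 43.7 CPM with LAA and olaparib, against 137, 138 and 123 CPM with LAA, a 2.75-fold difference (edgeR adjusted p = 8.96e-09). NDRG1 fell 2.02-fold, the regulator of glycolytic flux PFKFB4 2.04-fold and the collagen prolyl hydroxylase subunit P4HA1 1.84-fold. The member that rose was VEGFA, the vascular growth factor, which averaged 40.6 ± 0.274 CPM with LAA and olaparib and 27.8 ± 5.97 CPM with LAA and was named after its value was seen. The count was 0 higher and 13 lower with the covariate.

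The hypoxia response element core ACGTG was in 10 of the 23 called members with a RefSeq promoter entry (43.5%) and in 21.4% of all promoters. The list was chosen as known hypoxia targets and glycolytic genes, so this excess is not a result about the calls. The 2 targets with the smallest adjusted p carry the core in the windows below, ALDOC (chr17:28576846-28577145, minus strand) and BNIP3 (chr10:131981874-131982173, minus strand), in capitals where it matches on either strand. CACGTG holds the core on both strands.
ALDOC: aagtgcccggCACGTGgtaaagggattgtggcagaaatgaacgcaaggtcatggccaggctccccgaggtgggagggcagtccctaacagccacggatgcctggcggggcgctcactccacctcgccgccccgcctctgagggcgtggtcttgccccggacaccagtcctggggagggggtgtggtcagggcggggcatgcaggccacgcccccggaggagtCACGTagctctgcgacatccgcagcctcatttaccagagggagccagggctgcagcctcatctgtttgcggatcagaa
BNIP3: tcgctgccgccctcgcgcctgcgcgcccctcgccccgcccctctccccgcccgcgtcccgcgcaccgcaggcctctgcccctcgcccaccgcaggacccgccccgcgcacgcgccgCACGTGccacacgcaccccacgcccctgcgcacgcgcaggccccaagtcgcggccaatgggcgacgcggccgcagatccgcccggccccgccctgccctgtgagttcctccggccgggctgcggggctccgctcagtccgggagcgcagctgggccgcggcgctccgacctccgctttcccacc

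S100A8 and S100A9 form calprotectin, the main calcium-binding alarmin of monocytes and neutrophils. S100A9 (hg38, chr1:153357854-153361027) had 74.97, 62.8 and 66.4 CPM in LAA + olaparib libraries, against 407, 362 and 439 CPM in LAA libraries. The highest LAA + olaparib library was far below the lowest LAA library, and the log2 fold change was -2.57 ± 0.10 (SE) (edgeR adjusted p = 7.6e-12). S100A8 had 40.9, 31.4 and 38.3 CPM with LAA and olaparib, against 182, 175 and 215 CPM with LAA, with a log2 fold change of -2.37 ± 0.11 (SE). FCER1G, the common gamma chain of Fc receptors, fell 1.78-fold. Lysozyme (LYZ) rose instead, with 177, 171 and 194 CPM in LAA + olaparib libraries, against 99.01, 103 and 89.8 CPM in LAA libraries (edgeR adjusted p = 3.62e-07), and so did SIGLEC1, a macrophage sialic acid receptor that interferon also raises, by 3.26-fold. Of 40 monocyte and phagocyte genes 6 rose (15%) and 10 fell (25%), beside 6.68% and 8.25% of all genes. With the covariate 2 rose and 5 fell. The summed level of 10 monocyte markers, S100A8, S100A9 and LYZ among them, was 474.9 to 502.4 CPM with LAA and olaparib and 860.4 to 961.6 CPM with LAA. S100A9 averaged 68.0 CPM with LAA and olaparib and 403 CPM with LAA, and S100A8 36.9 and 190 CPM. S100A8 and S100A9 together fell by more than the sum did, so its fall does not speak for the other markers. None of the 10 was at 0 in all LAA + olaparib libraries, and FCN1 was at 0 in all LAA libraries. Among myeloid granule genes the proteoglycan SRGN rose 1.35-fold and the protease PRTN3 fell 1.29-fold, 1 of 14 in each direction. That is 7.14%, near the 6.68% and 8.25% of all genes. The PRTN3 call was lost with the covariate and without LAA replicate 3 or any 1 LAA + olaparib library.

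Of 23 genes of TNF, chemokines and NF-kB 17 were not called, and those called moved down with 1 exception. TNF, the cytokine, had 5.32, 4.86 and 4.82 CPM with LAA and olaparib, against 14.00, 13.3 and 12.7 CPM with LAA. The groups did not overlap, and the log2 fold change was -1.41 ± 0.13 (SE) (edgeR adjusted p = 5.02e-07). TNFAIP3 (A20), a brake on NF-kB, fell 1.86-fold, the subunit NFKB2 1.48-fold and the inhibitors NFKBIA 1.38-fold and NFKBIE 1.31-fold. Of 23 tested members 5 fell, and 1 rose (IER3, at a mean of 0.272 CPM with LAA and olaparib, and named after its value was seen). Falls made 21.7% of the list and the rise 4.35%, beside 8.25% and 6.68% of all genes. With the covariate the list had 0 higher and 2 lower.

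Transcripts of the drug's targets did not pass the test. PARP1 had 713, 748 and 729 CPM in LAA + olaparib libraries, against 678, 672 and 634 CPM in LAA libraries, a log2 fold change of 0.14 ± 0.07 (SE) (edgeR adjusted p = 0.16). PARP2 had 30.8, 31.8 and 30.7 CPM with LAA and olaparib, against 33.3, 34.2 and 33.7 CPM with LAA, a log2 fold change of -0.12 ± 0.10 (SE) (edgeR adjusted p = 0.479). Among 29 PARP and base excision repair genes 2 rose and 1 fell, with a median of -0.01, near the 6.68% and 8.25% of all genes, and 0 were called in either direction with the covariate. The members that rose were TDG, the glycosylase that removes oxidized methylcytosine, with 67.4, 65.8 and 67.2 CPM in LAA + olaparib libraries, against 51.8, 55.8 and 43.7 CPM in LAA libraries (edgeR adjusted p = 0.00596), and the tankyrase TNKS (1.27-fold). The glycosylase NTHL1 fell 1.34-fold. The TDG call was lost with the covariate (edgeR adjusted p = 0.168) and held in the other alternatives, while that of TNKS was lost in 6 alternatives and that of NTHL1 in 9 of 16.

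Genes of homologous recombination and Fanconi repair, mend the breaks that PARP inhibition leaves. Of 41 tested 11 rose (26.8%) and 1 fell (2.44%), beside 6.68% and 8.25% of all genes, with a median of 0.21. BRCA2, a central protein of homologous recombination, had 40.4, 47.6 and 41.2 CPM with LAA and olaparib, against 30.2, 33.9 and 30.8 CPM with LAA (1.36-fold, edgeR adjusted p = 0.00303). XRCC2, of the same pathway, rose 1.47-fold, BRCA1 1.31-fold, the exonuclease EXO1 1.27-fold and the kinase ATR 1.65-fold. ATR had 24.7, 30.6 and 32.4 CPM in LAA + olaparib libraries, against 18.6, 22.5 and 12.3 CPM in LAA libraries, so LAA replicate 3 was the lowest of the 6. The list had 0 higher and 1 lower with the covariate, 7 higher without LAA replicate 1, and 6 higher without LAA replicate 3 or LAA + olaparib replicate 2.

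The fold changes went with the length of the gene model. Tested genes were put into 5 equal classes by that length. In the class of the shortest (median 1273 bases) the median log2 fold change was -0.16, and in that of the longest (median 10004 bases) it was 0.13. In THP-1 these medians were -0.02 and -0.02. LAA replicate 3 also differed from the other LAA libraries by length, with the opposite sign, by 0.13 on the log2 scale in the shortest class and -0.18 in the longest. With the length trend of each library removed, an alternative chosen after the data were seen, 2339 genes were called. Only 1899 of these were among the 2413 called without that step. The repair list had 10 higher and 1 lower. Interferon-stimulated genes then had 45 higher, sterol genes 31 lower and hypoxia targets 26 lower.

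The factor p53 raises genes of arrest and cell death after DNA damage. Of 32 targets tested 3 rose (9.38%) and 6 fell (18.8%), beside 6.68% and 8.25% of all genes, with a median of 0.00. CDKN1A (p21), an inhibitor of cyclin-dependent kinases, had 104, 109 and 97.4 CPM with LAA and olaparib, against 142, 142 and 143 CPM with LAA. The groups did not overlap, and the log2 fold change was -0.46 ± 0.07 (SE) (edgeR adjusted p = 0.000153). BTG2 fell 1.74-fold, PHLDA3 1.65-fold and BAX 1.49-fold, while SESN2, which the stress list also holds, rose. Among 29 BCL2 family and apoptosis genes 3 rose and 3 fell (10.3% each), beside the same 6.68% and 8.25%. The killers BBC3 (PUMA), BIK and BAX fell 1.91-fold, 1.58-fold and 1.49-fold, and PMAIP1 (NOXA) and CASP8 rose 1.44-fold and 1.24-fold. With the covariate 1 p53 target rose and 3 fell, and 0 apoptosis genes rose and 1 fell. The apoptosis list had 1 higher and 3 lower without LAA replicate 1 or any 1 LAA + olaparib library, and CASP8 lost the call in 9 of 16 alternatives.

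Genes of DNA replication rose in 10 of 48 cases (20.8%) and fell in 3 (6.25%), with a median of 0.07. Of all genes 6.68% rose and 8.25% fell, so the share of falls was below that of all genes. MCM10 rose 1.300-fold, the helicase subunit MCM7 1.23-fold and GINS4 1.34-fold, while thymidine kinase TK1 fell 1.32-fold and the licensing factor CDT1 1.28-fold. The count was 1 higher and 0 lower with the covariate, 3 higher without LAA + olaparib replicate 2 or 3, and 6 higher without LAA replicate 1. Mitotic genes rose in 2 of 42 cases, the kinase AURKA (1.15-fold) and HMMR (1.31-fold). They fell in 3, the kinase AURKB (1.37-fold), SPC25 (1.296-fold) and NUSAP1 (1.29-fold). These mitotic shares are below the 6.68% and 8.25% of all genes. With the covariate 0 mitotic genes were called in either direction, and without LAA + olaparib replicate 2 0 rose and 1 fell. AURKA lost the call in 8 of 16 alternatives and NUSAP1 in 9. MYC had 165, 159 and 155 CPM in LAA + olaparib libraries, against 165, 168 and 163 CPM in LAA libraries, with a log2 fold change of -0.05 ± 0.07 (SE) (edgeR adjusted p = 0.687).

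Of 15 genes of cytosine methylation and its oxidation 1 rose (6.67%) and 2 fell (13.3%), beside 6.68% and 8.25% of all genes. TET3, one of the oxidases, had 74.5, 81.5 and 70.9 CPM with LAA and olaparib, against 62.4, 65.8 and 39.9 CPM with LAA, so 1 LAA library was low. Its edgeR adjusted p was 0.0447, and it lost the call when any 1 LAA + olaparib library or LAA replicate 3 was left out (edgeR adjusted p of 0.0746 to 0.19). TET1 had a log2 fold change of -0.09 ± 0.22 (SE) (edgeR adjusted p = 0.843) and TET2 of 0.35 ± 0.14 (SE) (edgeR adjusted p = 0.0969). The methyl-binding domain protein gene MBD3 fell 1.41-fold and IDH2, a mitochondrial isocitrate dehydrogenase, 1.22-fold. With the covariate 0 members of the list were called in either direction, and IDH2 also lost the call without LAA replicate 3 or LAA + olaparib replicate 2 or 3. Of germline genes that methylation silences in many cells, 7 were expressed enough to test. Of these 1 fell, TKTL1 (1.44-fold), which is 14.3%, beside 8.25% of all genes. With the covariate 0 fell. In the KMT2A fusion program 1 of 28 genes rose, the kinase CDK6 (1.39-fold), and 1 fell, HOXA11 (1.24-fold), shares below those of all genes. Both lost the call with the covariate, and HOXA11 lost it in 9 of 16 alternatives, among them each left-out LAA + olaparib library and LAA replicate 3. FLT3 had 10.8, 8.98 and 10.2 CPM in LAA + olaparib libraries, against 8.84, 8.72 and 5.92 CPM in LAA libraries (edgeR adjusted p = 0.118).

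NRF2 is the transcription factor that answers oxidants. Of 35 targets and antioxidant genes 13 fell (37.1%) and 1 rose (2.86%), beside 8.25% and 6.68% of all genes, with a median of -0.24. The peroxidase GPX1 fell 1.502-fold, OSGIN1 1.86-fold, and the pentose phosphate enzymes TKT 1.31-fold and PGD 1.29-fold. SLC7A11, the cystine importer, rose 1.78-fold (edgeR adjusted p = 0.000378), and HMOX1, heme oxygenase, had a log2 fold change of 0.11 ± 0.18 (SE) (edgeR adjusted p = 0.72). With the covariate the list had 1 higher and 0 lower, and 6 or 7 fell without LAA + olaparib replicate 2 or 3 or LAA replicate 3. Of 15 iron genes 1 rose, the importer SLC39A14 (1.55-fold), and 2 fell, the ferritin light chain FTL (1.32-fold) and the transferrin receptor TFRC (1.25-fold). These are 6.67% and 13.3%, beside 6.68% and 8.25% of all genes. FTL and TFRC each lost the call in 5 of 16 alternatives, FTL with the covariate among them, and 0 iron genes fell without LAA + olaparib replicate 3. CYP1B1, a target of the aryl hydrocarbon receptor, had 35.2, 42.01 and 36.9 CPM with LAA and olaparib, against 19.3, 19.7 and 13.8 CPM with LAA, a log2 fold change of 1.11 ± 0.12 (SE) (edgeR adjusted p = 5.92e-06). Of its list of 8, 1 rose (12.5%) and 2 fell (25%), beside 6.68% and 8.25% of all genes. NQO1 was among those that fell (1.24-fold), and with the covariate 1 rose and 0 fell.

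Cytosolic ribosomal protein genes share a start motif that ties their translation, and that of several translation factors, to growth signals. Of 74 tested 60 fell and 0 rose, with a median of -0.43. RPL35A had 462, 349 and 437 CPM in LAA + olaparib libraries, against 676, 602 and 732 CPM in LAA libraries, a 1.61-fold difference (edgeR adjusted p = 0.000285). RPL27A fell 1.48-fold, RPS2 1.47-fold and RPL10 1.46-fold. Ribosomal protein genes have many near-identical pseudogenes, so single values are uncertain. Of 19 translation factors and other genes with such a motif 10 fell, among them BTF3 (1.38-fold), HNRNPA1 (1.31-fold), EEF1A1 (1.26-fold), EEF2 (1.22-fold) and EEF1B2 (1.27-fold). The counts depended on the alternative. With the covariate 1 ribosomal gene and 0 of those 19 genes fell. Without LAA + olaparib replicate 2 these counts were 30 and 3, and without LAA replicate 3 they were 35 and 5. With the length trend removed 58 and 10 fell. Of the 13 genes the mitochondrion encodes, MT-ND4L rose 1.62-fold, MT-CO1 rose 1.28-fold and MT-ND3 fell 1.46-fold. That is 15.4% higher and 7.69% lower, beside 6.68% and 8.25% of all genes. Under total-count scaling 6 of them rose, and 4 rose without LAA replicate 3. With the covariate 0 were called in either direction, and MT-CO1 lost the call in 6 of 16 alternatives.

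Among protein-coding genes with groups that did not overlap and a mean log2 CPM of 1 or more, the largest rises included KLHDC7B (hg38, chr22:50545891-50551023), which had 8.06, 7.204 and 6.16 CPM with LAA and olaparib, against 0.358, 0.258 and 0.133 CPM with LAA, a log2 fold change of 4.83 ± 0.56 (SE) (edgeR adjusted p = 1.06e-05). The LAA libraries were all under 1 CPM. IL31RA, a cytokine receptor subunit, rose 3.83-fold. The largest fall among them was that of LSP1 (hg38, chr11:1852970-1892267), an actin-binding protein of leukocytes, which had 0.929, 1.54 and 0.746 CPM in LAA + olaparib libraries, against 21.97, 16.6 and 16.4 CPM in LAA libraries. The groups were far apart, and the log2 fold change was -4.05 ± 0.20 (SE) (edgeR adjusted p = 8.15e-11). SULF2, an extracellular sulfatase, had 2.48, 2.87 and 1.29 CPM with LAA and olaparib, against 16.2, 19.6 and 13.04 CPM with LAA, a 7.24-fold difference. PNCK, a calcium-dependent kinase, fell 5.45-fold, TBC1D30 5.36-fold, the inhibitory Fc receptor FCGR2B 5.46-fold, the proteoglycan SPOCK2 5.13-fold and the chemokine gene CCL3L1 4.93-fold. CCL3L1 has near-identical copies, so its value is uncertain.

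Markers of other cell types were low in both groups. The summed level of 8 T and NK cell markers was 6.04 to 7.09 CPM with LAA and olaparib and 8.01 to 10.7 CPM with LAA, with CD3E and KLRD1 at 0 in both. That of 6 B cell markers was 16.7 to 19.3 CPM and 19.5 to 20.8 CPM in the same groups, where PAX5 rose 1.54-fold and BLNK fell 1.83-fold. With the covariate 0 B cell markers were called, PAX5 lost the call in 6 of 16 alternatives and BLNK in 5. That of 9 erythroid and megakaryocyte markers was 0.448 to 1.55 CPM with LAA and olaparib and 1.02 to 1.81 CPM with LAA. That of 9 epithelial and fibroblast markers was 5.03 to 7.196 CPM with LAA and olaparib and 7.01 to 8.42 CPM with LAA, with COL1A2, COL3A1, DCN and LUM at 0 in both. The 7 myeloid blast markers summed to 106.0 to 111.3 CPM with LAA and olaparib and 104.0 to 114.2 CPM with LAA.

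Olaparib without LAA was compared with vehicle in the same fit. There 1 of 16160 genes was called by edgeR (0.00619%), 1 higher and 0 lower, while 1354 had an unadjusted p under 0.05 and DESeq2 called 33. The gene was CYP1B1, which had 38.4, 35.4 and 35.7 CPM with olaparib, against 19.4, 18.1 and 21.6 CPM with vehicle (log2 fold change 0.89, edgeR adjusted p = 0.0138). Olaparib replicate 3 stood apart in its group. Its log2 CPM correlated at 0.986 with replicates 1 and 2, which correlated at 0.993 with each other. Its share of mitochondrial counts was also the highest of the group. This contrast was not refitted without that library, so how far the library lowered the count of calls was not tested. Side by side, the log2 fold change with olaparib beside LAA and without LAA was 2.37 and 0.78 for IFIT2, 1.61 and 0.35 for TRIB3, and -1.997 and -0.30 for DHCR7. It was -2.79 and -0.54 for ALDOC, and -2.57 and 0.31 for S100A9.

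The difference between the 2 olaparib effects, the interaction, was tested in the same fit. It passed for 329 of 16160 genes (2.04%), 115 positive (0.712%) and 214 negative (1.32%). Interferon-stimulated genes had 27 of 50 positive and 0 negative, and the stress response had 9 of 33 positive and 0 negative. Sterol genes had 26 of 32 negative and hypoxia targets 10 of 39, with 0 positive in either list, and the ribosomal list had 0 of 74 in either direction. By the same choice as the largest fold changes, the top positive interactions were 4.10 for KLHDC7B, 2.87 for IFI44L and 2.68 for GDF15. The top negative ones were -3.74 for LSP1, -2.96 for SULF2 and -2.88 for S100A9 (edgeR adjusted p = 2.46e-10). CYP1B1 had an interaction of 0.23 (edgeR adjusted p = 0.591). The 4 groups in this test differ in the summed level of the THP-1-silent genes, 3.52 to 6.54 CPM with LAA and 18.7 to 35.2 CPM without it, and with that level as a covariate 488 genes passed. The count was 206 without LAA + olaparib replicate 2, 210 without LAA + olaparib replicate 3, 210 without vehicle replicate 2, 218 without vehicle replicate 3 and 496 without LAA replicate 2. Total-count scaling gave 169 positive and 159 negative.

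**Figure D4:**
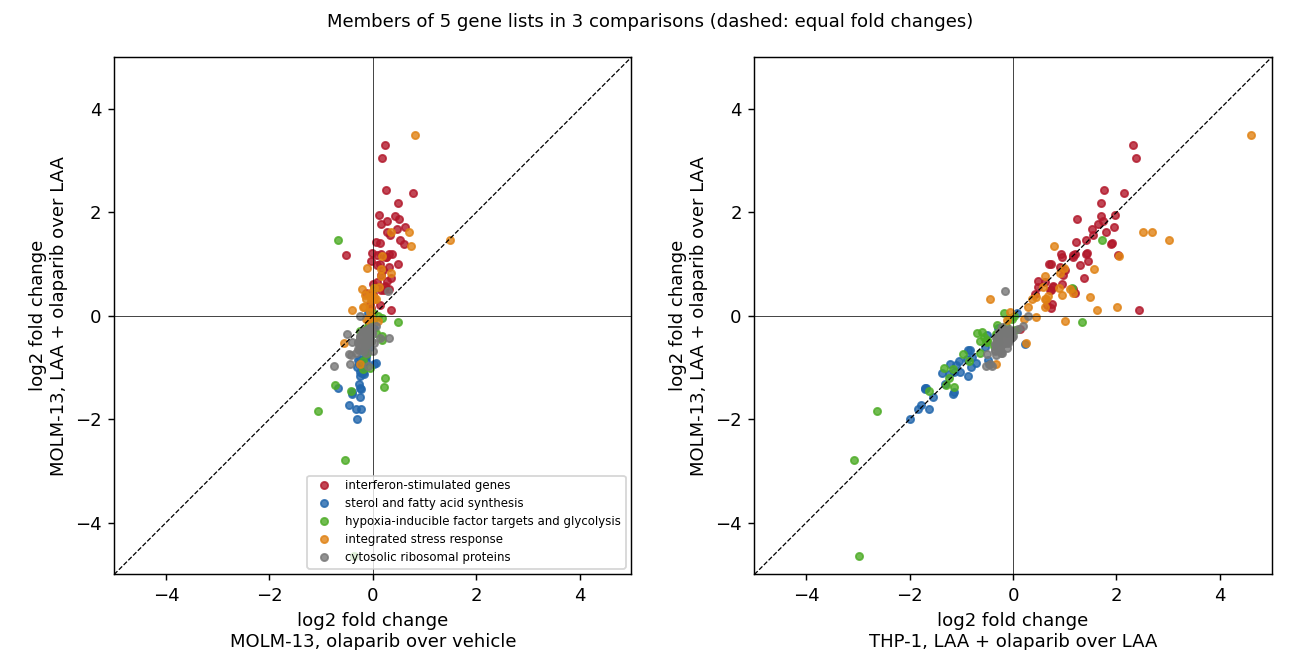
Log2 fold change of LAA + olaparib over LAA in MOLM-13 (vertical axes) for members of 5 gene lists, against that of olaparib over vehicle in MOLM-13 (left) and of LAA + olaparib over LAA in THP-1 (right). Interferon-stimulated genes had medians of 1.14, 0.22 and 1.21 in the 3 comparisons, and sterol genes -1.04, -0.23 and -1.08.

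The same contrast was fitted on its own in the 12 THP-1 libraries. There 3320 of 16331 genes passed (20.3%), 1653 higher (10.1%) and 1667 lower (10.2%). Of the 1080 genes that rose in MOLM-13, 521 also rose in THP-1 (48.2%), which is 32.0% of the 1628 THP-1 rises among genes tested in MOLM-13. Of the 1333 that fell, 670 also fell in THP-1 (50.3%, or 40.5% of 1653), and 8 genes passed in opposite directions. All 44 interferon-stimulated genes that rose in MOLM-13 also rose in THP-1, as did the 19 stress genes, and 29 of the 30 sterol genes fell in both. For hypoxia targets 21 of 26 fell in both, and for ribosomal protein genes 36 of 60. In homologous recombination 4 of the 11 rises were shared. The MOLM-13 libraries with LAA had 3.52 to 6.54 CPM of the THP-1-silent genes. MOLM-13 vehicle libraries had 33.7 to 35.2 CPM and THP-1 libraries 0.0937 to 1.01 CPM. How any THP-1 RNA in them bears on the overlap was not tested, so it is not counted as a repeat in an independent line.

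The difference between the lines in this effect, MOLM-13 minus THP-1, passed for 183 of 17089 genes (1.07%), 59 positive (0.345%) and 124 negative (0.726%). Of 33 stress response genes 12 were negative and 0 positive, and of 50 interferon-stimulated genes 6 and 0. TRIB3 had a log2 fold change of 1.61 in MOLM-13 and 2.69 in THP-1 (difference -1.08, edgeR adjusted p = 2.36e-07). ATF4 had -0.03 in MOLM-13 and 0.45 in THP-1 (difference -0.49, edgeR adjusted p = 0.014). CDKN1A fell in MOLM-13 (-0.46) and rose in THP-1 (0.42), a difference of -0.88 (edgeR adjusted p = 2.36e-07). S100A9 fell by more in MOLM-13 (-2.57) than in THP-1 (-1.82), with a difference of -0.75 (edgeR adjusted p = 0.00201). Sterol genes and hypoxia targets had 0 differences in either direction. Among protein-coding genes with groups that did not overlap and a mean log2 CPM of 1 or more, the largest positive differences were those of GOLGA8Q (1.199), PTPN14 (1.17) and SEMA6A (1.09), and the largest negative ones those of EOMES (-1.65), RGS16 (-1.54) and CYP19A1 (-1.38). The sign of a difference is not the direction of the change in MOLM-13. There the log2 fold change was 0.94 for GOLGA8Q, -0.52 for PTPN14 and -0.41 for SEMA6A. It was 1.42 for EOMES, -0.91 for RGS16 and 1.23 for CYP19A1. PTPN14 and SEMA6A were not called in MOLM-13 (edgeR adjusted p of 0.0586 and 0.0936). The count of line differences depended on single libraries. Without MOLM-13 LAA replicate 2 it was 1150 and without THP-1 LAA replicate 2 it was 409. It was 39 without THP-1 LAA + olaparib replicate 3, 40 and 49 without THP-1 LAA replicate 1 and replicate 3, and 63 without MOLM-13 LAA replicate 3 or LAA + olaparib replicate 2. It was 68 without MOLM-13 LAA + olaparib replicate 3 and 108 without MOLM-13 LAA replicate 1. Total-count scaling gave 53 positive and 71 negative.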

How the data were processed

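PolyA-selected RNA of 24 cell line libraries was sequenced from a kit that does not mark strand, per the labels' protocols. HISAT2, SAMtools and DESeq2 and the build hg38 are named in the submitters' processing notes. For the counting tool, annotation and strand setting the sources used here give nothing. The authors deposited raw read counts per gene (58735 genes) and an FPKM table of the same libraries, per the file headers. Antisense partners, overlapping genes and near-identical copies can therefore share reads.

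Columns were matched to samples by the labels' descriptions, and 0 columns of per-sample values were left unused. Counts of the 12 MOLM-13 libraries were fitted together with edgeR 4.0.16 (R 4.3.3), with filterByExpr defaults, TMM scaling, a quasi-likelihood F test and Benjamini-Hochberg adjustment over all genes tested. An SE is the log2 fold change over the root of F. THP-1 was fitted on its own 12 libraries, and the difference between lines on all 24. Library totals were 18666259 to 25265870 counts. Scripts were tested on simulated data. No pair of replicates agreed within sampling noise.

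Alternatives were DESeq2 1.42.0 (test and size factors), total-count scaling, other filters, limma 3.58.1 on log2(FPKM + 1), a replicate block, the 6 libraries alone, each library left out, and the log2 summed level of the THP-1-silent genes as a covariate. A lowess offset on gene length was chosen after seeing the data. The members, the 33 gene lists and the tests were chosen with earlier results of these data known. The text names the 10 largest called protein-coding differences in each direction whose groups did not overlap and whose mean log2 CPM was 1 or more, up to 5 called genes a list by adjusted p, 3 a direction in the difference tests, and a fixed set that included PARP1, TET1 and MYC. Lists hold genes the text does not name, and a few genes the rule picked are not reported here. Promoters were RefSeq GRCh38.p14, and motifs were searched by exact letters on both strands.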

Additional observations from a re-analysis of the deposited data

Results flagged for a closer look

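Among the 154 genes the text names, 55 had an olaparib effect that differed between cells with and without LAA in MOLM-13 (interaction, edgeR adjusted p under 0.05). The values are log2 differences, the effect beside LAA minus that without it, from 3 libraries a group, and their causes were not tested. Interferon-stimulated genes and their regulators were at 2.87 for IFI44L, 2.17 for IFI44, 1.59 for IFIT2, 1.497 for IFIT1 and 1.10 for IFIT3. Further values were 1.36 for OAS1, 1.35 for OAS2, 1.69 for EPSTI1, 1.84 for IFI27 and 1.23 for IFITM1. The last of this group were 0.95 for IRF7, 1.09 for DDX58, 0.73 for IFIH1 and 1.41 for SIGLEC1. Stress response, tRNA charging and metal transport genes were at 2.68 for GDF15, 1.27 for TRIB3, 0.99 for DDIT3, 1.02 for PSAT1 and 0.76 for SESN2. Further values were 0.87 for WARS, 0.46 for GARS, 0.57 for IARS, 0.41 for LARS and 0.64 for SLC39A14. Sterol and fatty acid genes were at -1.69 for DHCR7, -1.57 for FADS2, -1.47 for MSMO1, -1.32 for LSS and -1.14 for SCD. Hypoxia targets and glycolytic genes were at -2.25 for ALDOC, -1.03 for BNIP3, -0.96 for NDRG1, -0.84 for PFKFB4 and -0.70 for P4HA1. For myeloid and inflammatory genes the values were -2.46 for S100A8, -2.88 for S100A9, -0.84 for FCER1G, -2.09 for FCGR2B and -1.66 for CCL3L1. Further values were -1.08 for TNF, -0.67 for NFKB2, -0.58 for TMEM173 and 0.65 for LYZ. Outside these groups the differences were -0.66 for BIK, -0.86 for BTG2, -0.67 for CDKN1A, 0.89 for FLT3 and 4.10 for KLHDC7B. There were also -3.74 for LSP1, -0.65 for MT-ND3, -2.11 for PNCK, -2.04 for SPOCK2 and -2.96 for SULF2. The remaining differences were -2.26 for TBC1D30 and 0.64 for XRCC2. FLT3, also used to check the label, had 34.0 to 37.8 CPM with vehicle and 22.3 to 28.9 CPM with olaparib. The sum of the THP-1-silent genes was lower with olaparib too, at 18.7 to 23.7 CPM against 33.7 to 35.2 CPM. Whether the FLT3 difference is an effect of olaparib was not tested.

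The effect of olaparib beside LAA differed between the lines, MOLM-13 minus THP-1, for 20 of the named genes (edgeR adjusted p under 0.05). It was positive at 1.199 for GOLGA8Q, 1.17 for PTPN14 and 1.09 for SEMA6A. It was most negative at -2.34 for MX1, -1.65 for EOMES, -1.54 for RGS16, -1.38 for CYP19A1, -1.08 for TRIB3 and -0.90 for DDIT3. Next came -0.88 for CDKN1A, -0.75 for S100A9, -0.66 for IFITM3, -0.65 for SESN2, -0.63 for WARS and -0.59 for BST2. The smallest negative differences were -0.56 for NFKBIE, -0.55 for PARP10, -0.49 for ATF4, -0.47 for NQO1 and -0.41 for HSPA5. These signs are not directions in MOLM-13. Its own log2 fold change was -0.52 for PTPN14, -0.41 for SEMA6A, 1.42 for EOMES and 1.23 for CYP19A1. MX1 stood out among the interferon-stimulated genes, with a log2 fold change of 0.11 in MOLM-13 and 2.44 in THP-1 (difference -2.34, edgeR adjusted p = 2.51e-05). In the summed level of the THP-1-silent genes the MOLM-13 libraries with LAA lie between MOLM-13 vehicle and THP-1, and how this bears on the line differences was not tested.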

How the results depend on the processing

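The count for LAA + olaparib against LAA in MOLM-13 (2413) moved by over 1.5 times with the covariate of THP-1-silent genes (443), and ranged from 1029 to 3168 when 1 library was left out. The cause was not tested. The interaction count (329) was 555 with no filter on low counts and 550 by DESeq2, and ranged from 206 to 496 when 1 library was left out. The line difference (183) was 783 with no filter, 663 by DESeq2 and 39 to 1150 with 1 library left out. The THP-1 count (3320) lay between 2419 and 3516 over its alternatives.

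With the replicate block the 4 counts were 2508, 347, 3154 and 236 (MOLM-13, interaction, THP-1, line difference), so none moved by over 1.5 times. Deviations of same-numbered LAA + olaparib and LAA libraries correlated at -0.03, 0.16 and 0.01, and LAA + olaparib replicate 1 correlated better with LAA replicate 3 (0.15), so the numbers were not taken to pair the samples. Of 135 named genes called in MOLM-13, 65 stayed called in every alternative, 36 lost the call with the covariate alone, 34 lost it in another alternative and 0 changed sign. Each group had 3 libraries, and low counts widen the error, as for KLHDC7B with LAA (SE 0.56 on the log2 scale).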
